A study of Caenorhabditis elegans with 21 samples.

Results

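The genes described here encode lysozymes, saposin-like proteins and antimicrobial peptides of C. elegans. They were taken as every gene whose name in the deposited tables is lys, ilys, spp, abf, cnc, fip, fipr or thn followed by a number. Of these genes, 62 were present in both tables, 65 among the 17720 genes of the adult table and 76 among the 23184 genes of the L1 table. The 79 genes present in either table comprised 9 lys, 4 ilys, 21 spp, 6 abf, 9 cnc, 5 fip, 21 fipr and 4 thn genes. The name ilys-2 stands for different gene IDs in the 2 tables. The larval row of that name carries the ID of a gene now named ilkp-1, so it is a member by its name only and is counted as such.

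RNA of whole hermaphrodites of the wild-type strain N2 was sequenced, with 3 libraries in each of 7 groups. Among day 1 adults, all on food when collected, the control group had always been fed and carried eggs. Fertile F4 and sterile F4 adults had been starved as L1 larvae themselves and came from the same recurrently starved line. They were picked from the same plates, fertile F4 adults with eggs and sterile F4 adults without, about 100 animals per library. L1 larvae were control animals or F4+3 animals, descended from the starved F4 animals through generations raised on food. Eggs of each line were plated with or without food. Larvae without food were collected at a later hour after egg preparation than larvae with food, about 10000 larvae per library. Food and the hour of collection cannot be told apart in that comparison. The study describes the libraries of both stages as independent biological replicates.

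Lysozymes cut the peptidoglycan of bacterial cell walls and serve the worm both in digesting its bacterial food and in defense. The lys genes encode the protist type and the ilys genes the invertebrate type. Saposin-like proteins of the spp family are related to the pore-forming amoebapores of amoebae. The abf genes encode defensin-like peptides, the cnc genes caenacins, small glycine-rich peptides made largely in the epidermis, and the thn genes thaumatin-like proteins. The fip and fipr genes were named for a peptide induced by fungal infection and its relatives. Several of these genes are known targets of the PMK-1 kinase cascade, of TGF-β signaling through DBL-1 and of DAF-16, the FoxO factor restrained by insulin signaling.

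Values are normalized counts, that is, reads per gene scaled by 1 size factor per library. Counted reads per library ranged from 12187063 to 22942483 in adults and from 25209530 to 53482585 in larvae, with F4+3 replicate 1 without food the shallowest of the larval libraries. Genes with a mean of at least 10 over a table were tested with limma on log2(normalized count + 1), and a change was called at an adjusted p under 0.05 in adults and under 0.1 in larvae. All fold changes are on that scale, which understates changes of genes with few reads. Members tested numbered 44 in adults and 65 in larvae. The 21 and 11 members below the minimum reached at most 25.2 (abf-1) and 20.5 (fip-4) normalized counts in any library. Close relatives may share reads, as the sources used here do not say how reads matching more than 1 gene were counted. Members given for a large called change were picked only among those whose groups did not overlap, so their separate groups are no added support. Markers of intestine, epidermis, pharynx, muscle and neurons present in the tables were above 0 in every group.

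Together the members took from 0.306% to 0.386% of the normalized counts of a larval library. In adults the share was from 0.139% to 0.161% in control, from 0.123% to 0.195% in fertile F4 and from 0.223% to 0.338% in sterile F4 libraries. The range of sterile F4 libraries lay above those of the other adult groups. In larvae, F4+3 libraries without food (0.344% to 0.386%) lay above control libraries with food (0.306% to 0.342%), and every other pair of larval groups overlapped.

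Levels were compared between genes per kilobase of exon (gene models of WBcel235). In larvae, the highest mean of each family was that of spp-14 (58366 normalized counts per kilobase), fipr-1 (30337), lys-8 (9972), cnc-8 (7314), ilys-5 (3519), fip-5 (2692), abf-5 (2617) and thn-2 (197). The adult table gave spp-5 (11073 normalized counts per kilobase), ilys-5 (6182), lys-1 (3055), fipr-21 (2139), thn-2 (1456), cnc-8 (623), fip-2 (539) and abf-2 (89.6). Each table was normalized on its own, so the lists are set side by side without a test. Only ilys-5, cnc-8 and thn-2 led their family in both tables.

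Most of these genes differed between larvae with and without food, in both directions. Called members were 69.2% of those tested in control larvae, against 58.1% of all genes, and 78.5% against 57.5% in F4+3 larvae. In control larvae, 26 of the 65 tested members rose and 19 fell without food, against 27.6% higher and 30.5% lower among all 15902 genes tested. In RNA of whole animals, fewer cells of a type and less RNA per cell cannot be told apart. The median log2 fold change was 0.04 over members and 0.04 over all genes. In F4+3 larvae, 33 members rose and 18 fell, with a background of 27.1% higher and 30.4% lower among all genes. All 26 members that rose in the control line also rose in the F4+3 line, where they were 78.8% of the risers. Of those that fell, 14 did so in both lines, 73.7% of the control list and 77.8% of the F4+3 list. The families differed in the direction of their calls. In the control line lys genes gave 1 higher and 6 lower of 9, cnc genes 5 higher and 1 lower of 7, fipr genes 10 higher and 3 lower of 15, and spp genes 5 higher and 7 lower of 19. After upper-quartile rescaling, which moved the median of all genes from 0.04 to 0.29 (log2), the control line gave 32 higher and 14 lower members. Of all 15902 genes, 6622 were then higher and 3469 lower.

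**Figure D1:**
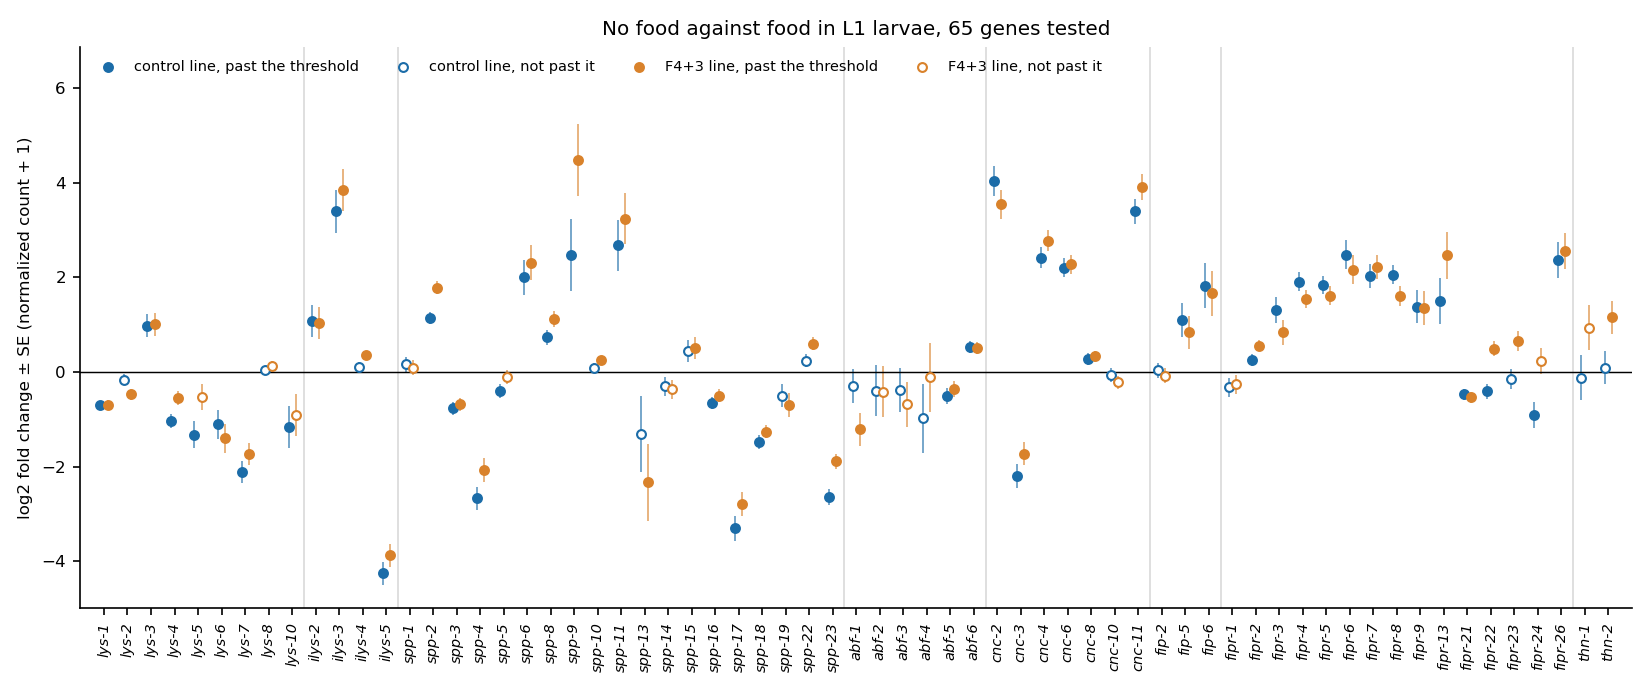
Log2 fold change of no food against food (vertical axis, on the log2 of normalized count + 1) for each of the 65 tested members (horizontal axis, grouped by family), in the control line (blue) and the F4+3 line (orange). Bars are the standard error of limma, and filled points are past the adjusted p threshold of 0.1. cnc-2 (4.04) has the highest and ilys-5 (-4.26) the lowest value of the control line.

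The invertebrate-type lysozymes held the largest fall among the members and one of the largest rises. ilys-5 had 11588, 7703 and 6618 normalized counts in control larvae with food and 382, 428 and 508 without. Every library without food lay far below every library with food. The mean was 8636 ± 2613 (SD, n = 3) with food and 439 ± 64.2 (SD, n = 3) without (log2 fold change -4.26, SE 0.24, adjusted p = 4.85e-09). F4+3 larvae gave 9393, 7405 and 8404 with food and 446, 459 and 887 without (log2 fold change -3.88, SE 0.24, adjusted p = 1.25e-08). ilys-3, an enzyme of pharynx and intestine that digests bacteria, went the other way, from 8.67, 7.81 and 3.89 to 89.2, 83.3 and 62.97 normalized counts in control larvae (log2 fold change 3.40, SE 0.44, adjusted p = 1.44e-05). Its F4+3 libraries had 7.66, 2.68 and 5.82 with food and 46.3, 107 and 125 without (log2 fold change 3.84, SE 0.44, adjusted p = 4.11e-06). The groups with and without food did not overlap for ilys-3 in either line.

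Among the protist-type lysozymes, lys-7 fell most. This gene, known from studies of resistance to bacterial infection, had 2362, 2564 and 1917 normalized counts in control larvae with food and 463, 441 and 691 without (log2 fold change -2.12, SE 0.23, adjusted p = 2.32e-06). F4+3 larvae had 2245, 2117 and 2197 with food and 771, 414 and 879 without (log2 fold change -1.74, SE 0.23, adjusted p = 1.62e-05). In both lines all libraries with food were above all without. lys-1, another effector of intestinal defense, fell less, from 6340.2, 6550.2 and 6328 to 4530.4, 3691 and 3597 in the control line (log2 fold change -0.71, SE 0.10, adjusted p = 4.35e-05) and from 6779, 6447 and 7304 to 4111, 4056 and 4462 in the F4+3 line (log2 fold change -0.70, SE 0.10, adjusted p = 4.84e-05). Its groups did not overlap either. lys-8, the most abundant lysozyme per length in larvae, was not called in either line. Its counts were 10592, 8914 and 8629.5 with food and 9635, 9783 and 9265 without in control larvae, and 9595, 9010.3 and 9664 with and 11184, 9644 and 10163 without in F4+3 larvae. These ranges overlapped in both lines. The only lys gene that rose was lys-3, at 0.98 in the control and 1.01 in the F4+3 line, and it lies directly next to lys-2 in the gene order of WBcel235. lys-4, lys-5 and lys-6, which form another row of neighbours, were at -1.04, -1.33 and -1.11 in control larvae and all fell there, whereas in F4+3 larvae lys-4 and lys-6 fell and lys-5 (-0.53, adjusted p = 0.135) did not pass the test.

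Saposin-like genes split. spp-17 had 4652, 2549 and 2017 normalized counts with food and 379.7, 238 and 269 without in control larvae (log2 fold change -3.31, SE 0.26, adjusted p = 8.22e-08). In F4+3 larvae it had 2486, 1865 and 2129 with food and 273, 271 and 390.3 without (log2 fold change -2.80, SE 0.26, adjusted p = 4e-07). Its direct neighbour spp-23 gave 2481, 2034 and 2317 with food and 352, 392 and 342 without in the control line (log2 fold change -2.65, SE 0.16, adjusted p = 9.58e-09). Libraries with food were above those without for both genes. In the F4+3 line spp-23 fell as well, with 2317, 2550.5 and 2666 with food and 883, 506 and 691 without (log2 fold change -1.89, SE 0.16, adjusted p = 2.08e-07). spp-4 went from 1725, 1627 and 1607 to 230.1, 324 and 229 in control larvae (log2 fold change -2.68, SE 0.25, adjusted p = 4.98e-07) and from 1509, 1771 and 2226 to 676, 271 and 434 in F4+3 larvae (log2 fold change -2.07, SE 0.25, adjusted p = 5.94e-06). The groups of spp-4 were separate in both lines.

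spp-4 lies in a row of 5 neighbouring spp genes whose calls were not of 1 direction. spp-3 and spp-4 fell in both lines, spp-2 and spp-6 rose in both, and spp-5, which encodes a pore-forming protein active against bacteria, was called lower in the control line alone. spp-5 had 14762, 11510.2 and 9369 normalized counts with food and 9113, 9756 and 7856 without in control larvae (log2 fold change -0.40, SE 0.15, adjusted p = 0.0339). Without control replicate 1 with food or control replicate 3 without food the call was lost (adjusted p = 0.155 and 0.142), as it was after upper-quartile rescaling (log2 fold change -0.14, adjusted p = 0.402). Its F4+3 libraries overlapped, at 11260.2, 10412 and 11166 with food and 9485, 9678 and 11485 without, and gave no call. spp-2 reached 1.14 in the control and 1.78 in the F4+3 line.

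spp-11 and spp-9 rose from few reads. spp-11 had 4.95, 22.5 and 8.75 normalized counts with food and 75.7, 66.2 and 68.6 without in control larvae (log2 fold change 2.68, SE 0.54, adjusted p = 0.000724), and 2.19, 5.37 and 4.99 and 80.2, 56.99 and 20.9 in F4+3 larvae (log2 fold change 3.24, SE 0.54, adjusted p = 0.000139). spp-9 had 0, 0 and 3.89 with food and 9.59, 13.04 and 4.70 without in control larvae (log2 fold change 2.48, SE 0.76, adjusted p = 0.0129), and 0, 0.895 and 3.32 and 55.5, 47.2 and 32.9 in F4+3 larvae (log2 fold change 4.49, SE 0.76, adjusted p = 0.000153). In neither gene did a library with food reach a library without food of the same line. spp-13, also at few reads, went the other way in the F4+3 line, from 14.2, 12.5 and 28.3 to 3.09, 0 and 10.4 (log2 fold change -2.34, SE 0.81, adjusted p = 0.0252), a call that was lost without F4+3 replicate 2 without food (adjusted p = 0.132). Its control libraries overlapped, at 14.9, 23.4 and 15.6 with food and 17.3, 7.02 and 1.88 without.

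Neither the most abundant saposin-like gene nor spp-1 was called. spp-14, the highest of all members per length, had 34884, 20007 and 18812 normalized counts with food and 20276, 18748 and 18488 without in control larvae, and 24136, 19721 and 22306 and 13534, 17444 and 20982 in F4+3 larvae. spp-1, whose protein kills bacteria in vitro, had 1984, 1786 and 1261 with food and 1976, 2040.2 and 1559 without in control larvae, and 1771, 1830.3 and 1866 and 1734, 1863 and 2253 in F4+3 larvae. Libraries with and without food overlapped for both genes in both lines. Of the saposin-like genes not yet given, spp-8 rose and spp-16 and spp-18 fell in both lines, by 0.73, -0.66 and -1.49 in the control line and 1.12, -0.50 and -1.26 in the F4+3 line. The call of spp-16 in the F4+3 line was lost after upper-quartile rescaling (adjusted p = 0.108).

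The caenacins held the largest rise of the control line. cnc-2, an epidermal peptide gene induced by fungal infection through TGF-β signaling, had 27.2, 33.2 and 13.6 normalized counts in control larvae with food and 397, 384 and 411 without. The groups were far apart, and the ratio of their means was 16.1 (log2 fold change 4.04, SE 0.31, adjusted p = 8.12e-08). F4+3 larvae had 20.8, 22.4 and 23.3 with food and 169.7, 296 and 386 without (log2 fold change 3.55, SE 0.31, adjusted p = 2.83e-07). cnc-11 rose from 94.1, 101 and 83.6 to 644, 1393 and 1062 in control larvae (log2 fold change 3.40, SE 0.27, adjusted p = 1.15e-07) and from 54.7, 109 and 73.1 to 929, 1152 and 1463 in F4+3 larvae (log2 fold change 3.92, SE 0.27, adjusted p = 3.25e-08). For cnc-4 the control libraries had 581, 391 and 371 with food and 2032, 2809.6 and 2280.2 without (log2 fold change 2.42, SE 0.22, adjusted p = 4.54e-07), and the F4+3 libraries 290.0, 312 and 367 and 1629, 2042 and 3236 (log2 fold change 2.78, SE 0.22, adjusted p = 1.15e-07). No library with food reached one without food in any of these genes.

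cnc-3 lies between cnc-4 and cnc-2 in the same row of neighbours and was the only caenacin to fall. It had 1850.4, 2104 and 2112 normalized counts with food and 371, 596 and 379.7 without in control larvae (log2 fold change -2.20, SE 0.25, adjusted p = 3.06e-06), and 2077, 2357 and 3501 and 1149.5, 733 and 555 in F4+3 larvae (log2 fold change -1.73, SE 0.25, adjusted p = 3.23e-05). Both lines thus showed separate groups. cnc-8, the most abundant caenacin per length, moved little, from 2030.0, 2203 and 1842 to 2256, 2884 and 2238 in control larvae (log2 fold change 0.27, SE 0.12, adjusted p = 0.0797). In F4+3 larvae it went from 2019, 1965 and 2306 to 2777, 2331 and 2796 (log2 fold change 0.33, SE 0.12, adjusted p = 0.0389). The call in the control line was lost without control replicate 1 or 3 with food or replicate 2 without food (adjusted p = 0.117, 0.234 and 0.336), and with only the 2 groups in the fit (adjusted p = 0.108). The call in the F4+3 line was lost without F4+3 replicate 2 with food or replicate 1 or 3 without food (adjusted p = 0.129, 0.106 and 0.114). cnc-6 rose in both lines, by 2.21 and 2.28, and cnc-10 was not called in either.

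**Figure D2:**
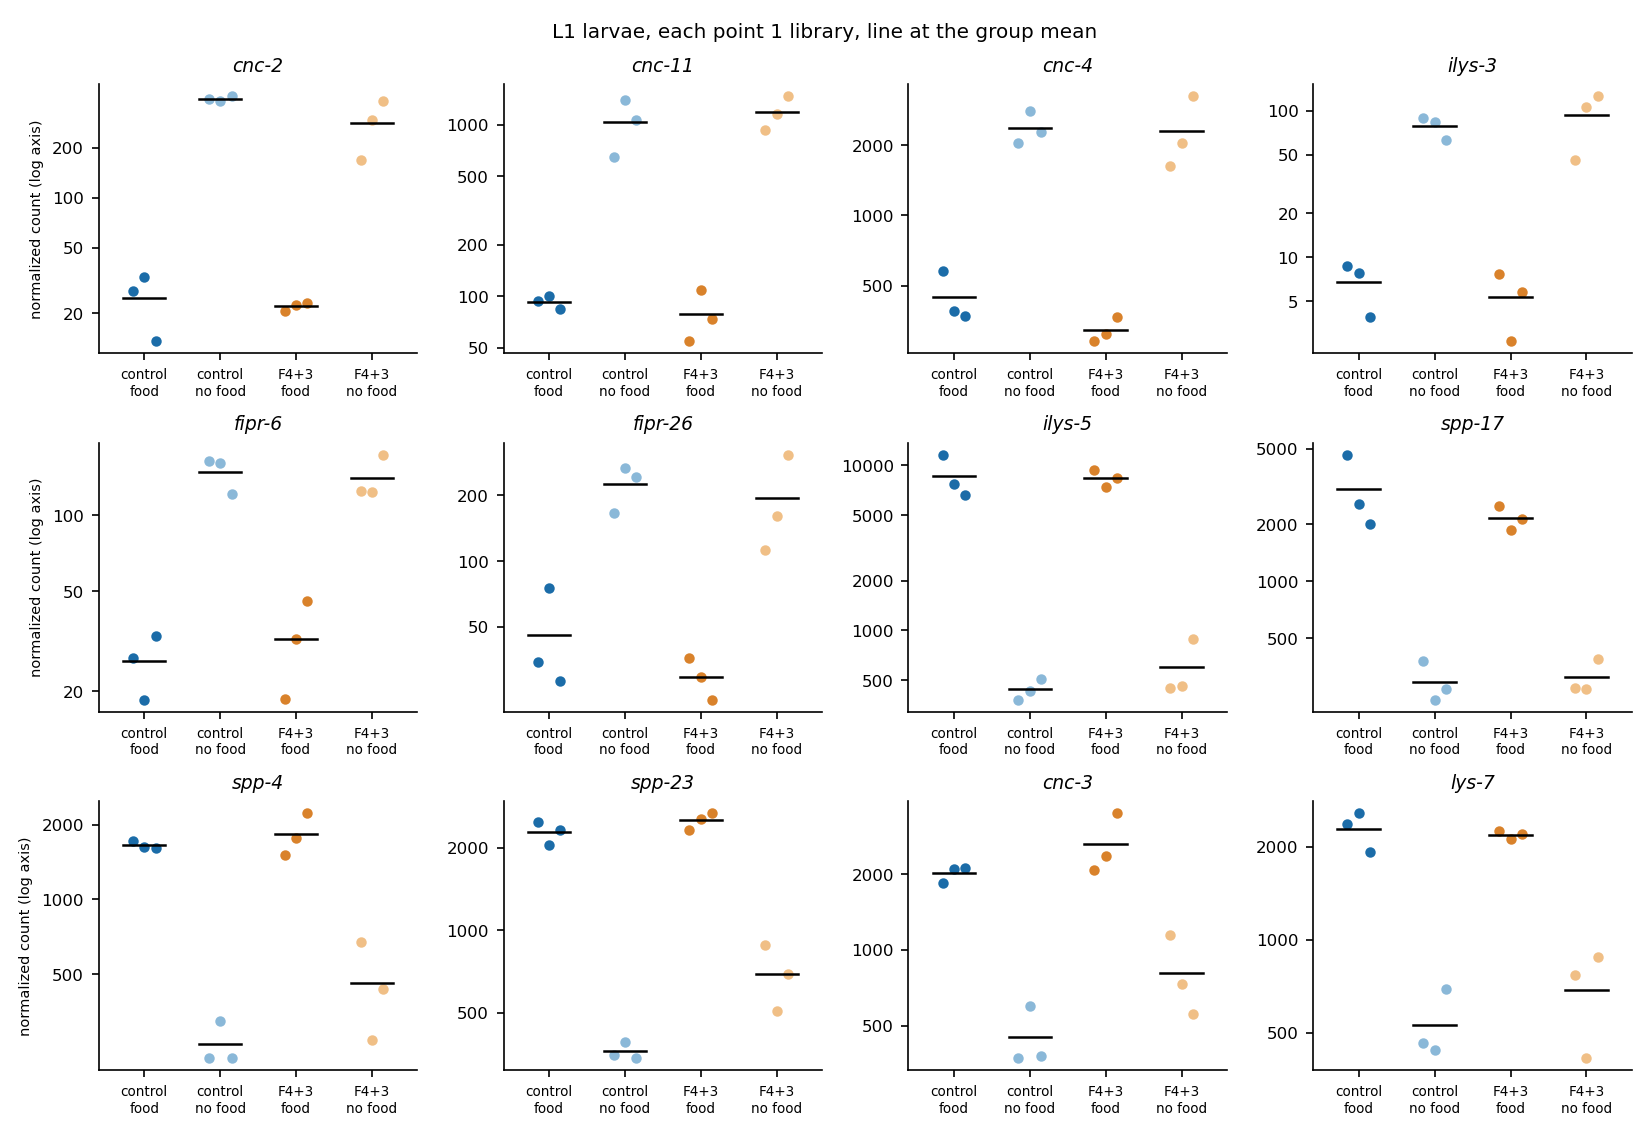
Normalized counts (vertical, log axis) of 12 members in the 12 larval libraries, with 1 point per library and a line at each group mean; fipr-26 was chosen for display after its values were seen. The 6 genes from cnc-2 to fipr-26 are higher, and the 6 from ilys-5 to lys-7 lower, in every library without food than in every library with food of the same line.

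The fungus-induced families rose for the most part. fipr-6 had 27.2, 18.5 and 33.1 normalized counts with food and 164, 161 and 121 without in control larvae (log2 fold change 2.48, SE 0.31, adjusted p = 9.52e-06), and 18.6, 32.2 and 45.7 and 125, 124 and 174 in F4+3 larvae (log2 fold change 2.17, SE 0.31, adjusted p = 3.49e-05). fipr-4, fipr-7, fipr-6 and fipr-8, which lie close to each other, rose by 1.91, 2.03, 2.48 and 2.06 on the log2 scale in control larvae. fipr-5 and fipr-9, another pair of neighbours, rose by 1.84 and 1.38, and the neighbours fip-6 and fipr-26 by 1.83 and 2.36. In F4+3 larvae these 8 genes rose by between 1.35 (fipr-9) and 2.56 (fipr-26). fipr-26, which was given after its values were seen, had 34.7, 75.2 and 28.2 with food and 166, 266 and 242 without in control larvae, and 36.1, 29.5 and 23.3 and 113, 161 and 307 in F4+3 larvae, without overlap in either line. fip-5 had 964, 484 and 359 with food and 1339, 1133 and 1093 without in control larvae (log2 fold change 1.10, SE 0.35, adjusted p = 0.0166), with separate groups. In F4+3 larvae fip-5 overlapped, at 541, 452 and 443 with food and 464, 909 and 1476 without (log2 fold change 0.84, SE 0.35, adjusted p = 0.0582), and the call was lost without F4+3 replicate 2 or 3 of either food group (adjusted p from 0.123 to 0.284). fipr-1, the most abundant of these families per length, was not called. Its counts were 8726, 10522 and 14205 with and 7432, 10047 and 8899.8 without food in control larvae, and 11033, 15366 and 18188 and 15155, 11233 and 10445 in F4+3 larvae. fip-1, which gave the family its name, was too low to test, at 0 to 14.6 normalized counts in all larval libraries.

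In control larvae 2 of 6 defensin-like and 0 of 2 thaumatin-like genes were called, against 58.1% of all genes. In F4+3 larvae they were 3 of 6 and 1 of 2, against 57.5%. Of the 6 abf genes, abf-6 rose in both lines, abf-5 was called lower in both and abf-1 fell in F4+3 larvae. abf-5 had 1341, 1427 and 1709 normalized counts with food and 845, 1224 and 1093 without in control larvae (log2 fold change -0.51, SE 0.18, adjusted p = 0.0249), a call lost without control replicate 1 without food (adjusted p = 0.128) or after upper-quartile rescaling (0.228). In F4+3 larvae it had 1122, 1236 and 1851 and 1122, 1080.3 and 994 (log2 fold change -0.36, SE 0.18, adjusted p = 0.0991), which was at the threshold. Its call was lost without any 1 of the F4+3 libraries without food (adjusted p from 0.115 to 0.214), F4+3 replicate 3 with food (0.486), control replicate 2 with food (0.112) or control replicate 3 without food (0.116). It was also lost without a filter on low values (0.112), with TMM (0.131), with only the 2 groups in the fit (0.101), with a pseudocount of 0.5 and after upper-quartile rescaling (log2 fold change -0.12, adjusted p = 0.575). abf-2, a peptide of the pharynx with antimicrobial activity, had few reads and was not called. Its control libraries had 24.8, 25.4 and 19.4 with food and 15.3, 25.1 and 13.2 without, and its F4+3 libraries 20.8, 25.05 and 24.1 and 54, 7.33 and 12.05.

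thn-2 was called only in the F4+3 line, from 89.7, 140.4 and 72.3 normalized counts with food to 367, 167 and 167 without (log2 fold change 1.15, SE 0.35, adjusted p = 0.0124). Its control libraries overlapped, at 109, 206 and 81.7 and 128, 118 and 148. The difference between the lines was not called (interaction, adjusted p = 1). thn-1, the neighbour of thn-2, was not called, with 18.6, 17.6 and 15.6 and 17.3, 16.05 and 14.1 in control and 9.85, 17 and 4.16 and 30.9, 11.4 and 16.9 in F4+3 larvae.

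Cell type markers also differed between larvae with and without food. In control larvae, summed epidermis markers ranged from 11391 to 13933 normalized counts with food and from 5703 to 8157 without, and 6 of 7 were lower. Summed intestine markers went from between 148309 and 191405 to between 96493 and 100410, with 3 of 7 higher and 3 lower. Pharynx markers were higher in 3 of 6. Their part in the changes of the members was not tested. Of 10 nlp genes that encode epidermal antimicrobial peptides, 7 rose without food in control and 8 in F4+3 larvae, and 0 fell in either. Of 34 tested regulators of immune signaling, 19 rose and 5 fell in control larvae, and 18 rose and 4 fell in F4+3 larvae. Among all genes tested, 27.6% were higher and 30.5% lower in the control line, and 27.1% and 30.4% in the F4+3 line.

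Ancestral starvation was compared next, F4+3 against control larvae. With food, 1 member of 65 was called, fipr-22, which was lower, against 0.0126% of all genes past the threshold in either direction. fipr-22 had 1314, 1004 and 1240.4 normalized counts in control larvae and 389.6, 579 and 442 in F4+3 larvae. The groups did not overlap (1186 ± 162 (SD, n = 3) against 470.2 ± 97.7 (SD, n = 3), log2 fold change -1.34, SE 0.16, adjusted p = 0.00682). fipr-24 lies directly next to fipr-22 in the gene order of WBcel235 and fipr-23 lies 1 gene away on the other side. Both are given for that position and were chosen after their values were seen. fipr-23 had 1885, 3127 and 3236 in control and 1213, 1499 and 1135 in F4+3 larvae, also without overlap (log2 fold change -1.07, SE 0.21, adjusted p = 0.148). fipr-24 had 343, 827 and 513 and 207, 314 and 177, likewise without overlap (log2 fold change -1.22, SE 0.27, adjusted p = 0.174). Neither passed the threshold. DESeq2 on recovered reads called all 3 genes, as did limma and edgeR with the replicate number as a block. Without control replicate 1 with food, limma called fipr-22 and fipr-23. These runs also called more of all 15902 genes than the main run, which called 0 higher and 2 lower. DESeq2 called 51 higher and 165 lower, limma with the block 6 and 46, and edgeR with the block 8 and 49. Without control replicate 1 with food, 0 were higher and 4 lower. As relatives in 1 family, these genes may share reads.

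**Figure D3:**
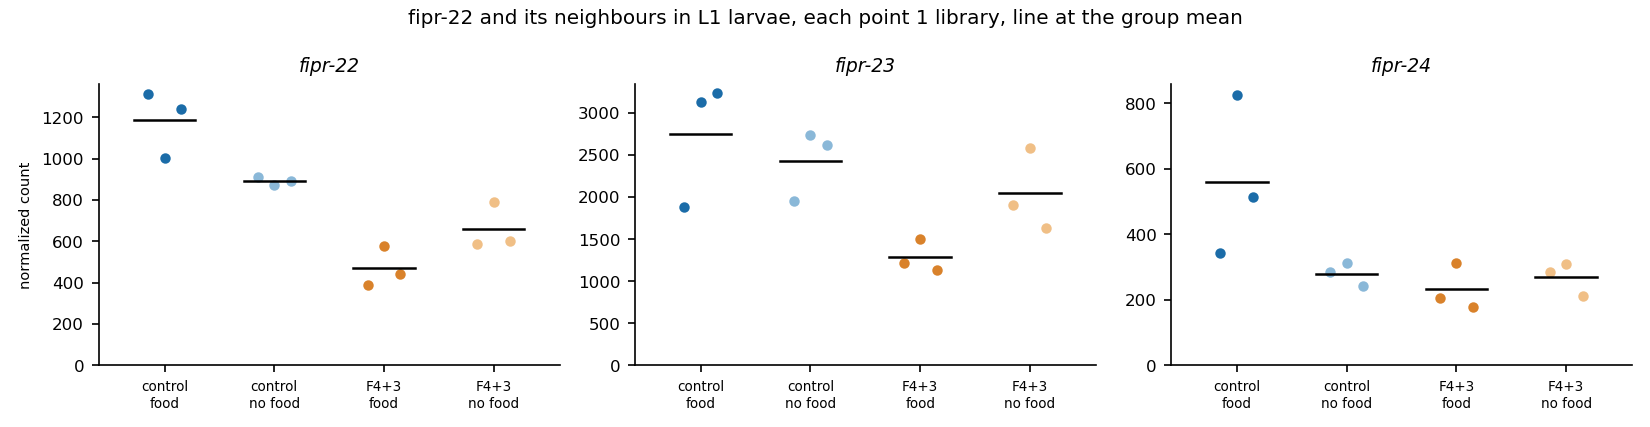
Normalized counts (vertical, linear axis from 0) of fipr-22, fipr-23 and fipr-24 in the 12 larval libraries, with 1 point per library and a line at each group mean. With food, the F4+3 libraries of fipr-22 (389.6 to 579) lie below the control libraries (1004 to 1314).

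Without food, 0 of 65 members were called between the lines, against 0% of all genes. At an unadjusted p under 0.05 in limma there were 13 of 65 members and 811 of 15902 genes. With food there were 10 of 65 members and 1366 of 15902 genes. In larvae without food, edgeR called 0 members and DESeq2 called 1 as higher, spp-23. Among all genes without food, edgeR called 0 and DESeq2 called 38 higher and 10 lower. spp-23 had 352, 392 and 342 normalized counts in control and 883, 506 and 691 in F4+3 larvae, without overlap (log2 fold change 0.90, SE 0.16, adjusted p = 0.385). Without F4+3 replicate 2, limma called it (adjusted p = 0.0136). fipr-22 had 913, 869.7 and 889 in control and 586, 788 and 603 in F4+3 larvae without food, and gave no call there, although the groups were again separate.

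The change between larvae with and without food was also tested for a difference between the lines. The interaction was called for 0 of 65 members, against 0% of all genes. An unadjusted p under 0.05 in limma was found for 7 of 65 members and 636 of 15902 genes. edgeR and DESeq2 also called 0 members. Among all genes, edgeR called 0 and DESeq2 called 2 above and 15 below 0. fipr-22 was the only member called in opposite directions, lower without food in the control line (log2 fold change -0.40, SE 0.16, adjusted p = 0.0447) and higher in the F4+3 line (log2 fold change 0.49, SE 0.16, adjusted p = 0.017). The difference itself, the change without food of the control line minus that of the F4+3 line, was -0.90 (SE 0.22). It did not pass (adjusted p = 0.904). The call in the control line was lost without control replicate 1 or 3 with food or replicate 2 without food (adjusted p = 0.14, 0.112 and 0.101), and after upper-quartile rescaling (log2 fold change -0.15, adjusted p = 0.424).

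Most of these genes had higher normalized counts in sterile F4 than in control adults. Such counts are relative levels within a library, not amounts of RNA per animal. Of 44 tested members, 25 were called higher and 1 was called lower, against 41.3% higher and 41.8% lower among all 13413 genes. The median log2 fold change was 1.02 over members and 0.14 over all genes. All 3 abf and both thn genes were higher. So were 4 of 7 lys, 1 of 2 ilys, 8 of 14 spp, 2 of 6 cnc, 2 of 3 fip and 3 of 7 fipr genes. The ilys gene called was ilys-4 (log2 fold change 1.30, adjusted p = 0.000559). Rescaling by TMM or by the upper quartile moved the median of all genes to 0.33 and 0.78 and gave 31 and 34 members higher and 1 lower. Of all 13413 genes, 6024 were then higher and 5301 lower with TMM, and 7049 and 4361 with the upper quartile. Without the filter on low values, 29 of all 65 members in the adult table were higher and 3 lower. Of all 17720 genes, 6085 were higher and 5852 lower in that run.

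**Figure D4:**
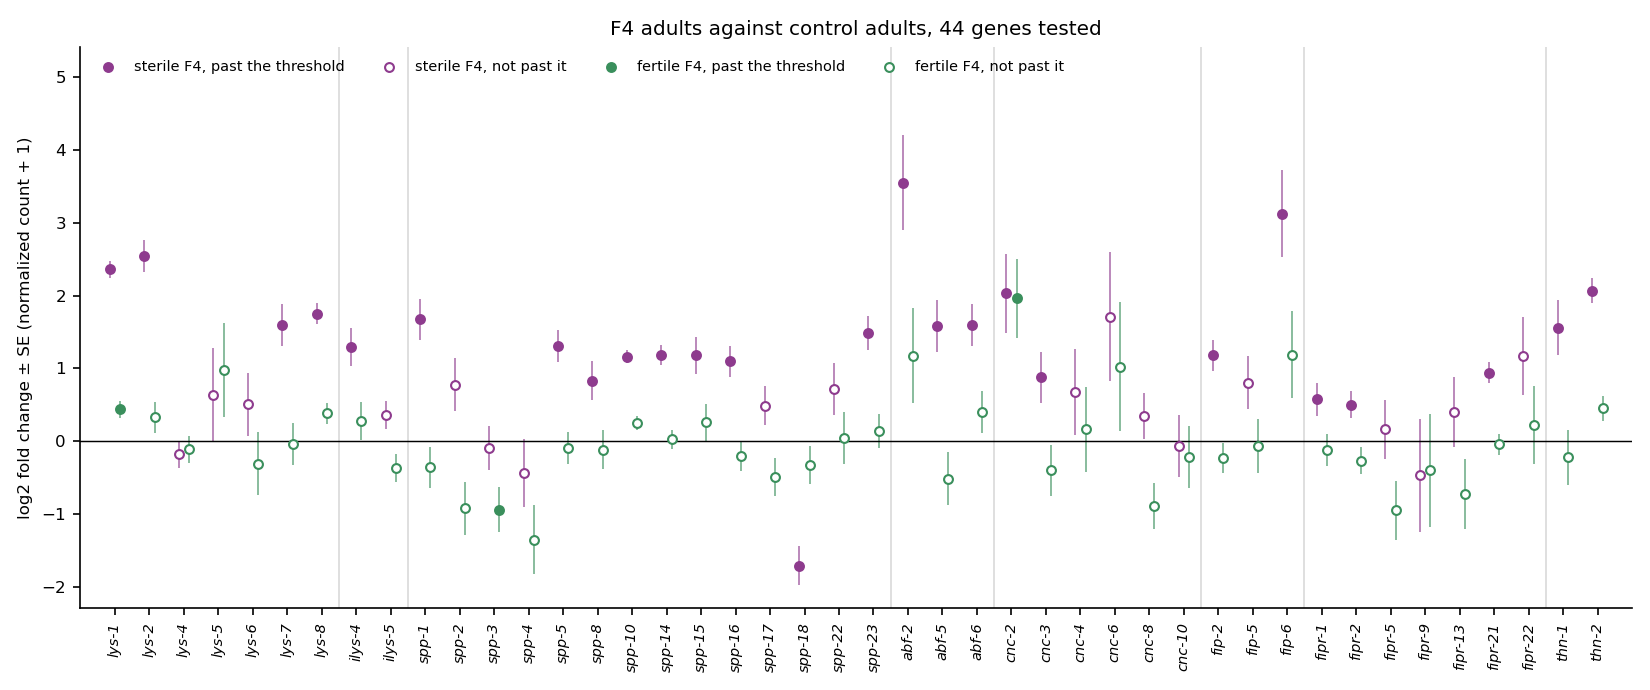
Log2 fold change against control adults (vertical axis, on the log2 of normalized count + 1) for each of the 44 tested members (horizontal axis, grouped by family), in sterile F4 (purple) and fertile F4 adults (green). Both share the 3 control libraries. Bars are the standard error of limma, filled points are past the adjusted p threshold of 0.05, and spp-18 (-1.71) is the only filled point of sterile adults below 0.

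Among lysozymes, lys-1 had 1165, 1111 and 1229 normalized counts in control adults and 6535, 6419 and 5163 in sterile F4 adults. The lowest sterile library was well above the highest control library (1168 ± 59.05 (SD, n = 3) against 6039 ± 761 (SD, n = 3), log2 fold change 2.36, SE 0.11, adjusted p = 1.34e-07). Its neighbour lys-2 went from 464, 330.3 and 499 to 2974, 2624 and 1952 (log2 fold change 2.54, SE 0.21, adjusted p = 7.18e-07), a ratio of means of 5.84. lys-7 had 859, 792 and 801 in control and 4078, 2054 and 1791 in sterile adults (log2 fold change 1.59, SE 0.29, adjusted p = 0.000281). For lys-8 the values were 1394, 1414 and 1538 and 6097, 4477 and 4258 (log2 fold change 1.75, SE 0.14, adjusted p = 5.51e-07). Each of these genes had separate groups. lys-4, shown after its values were seen as a lysozyme that was not called, had 727, 1045 and 1321 in control, 983, 820.4 and 984 in fertile F4 and 958, 895 and 805 in sterile F4 adults, all overlapping. ilys-5, the most abundant lysozyme per length in adults, was not called against control, with 7176, 8358 and 7538 in control, 7962, 5530.3 and 4785 in fertile F4 and 12156, 10023 and 7907 in sterile F4 adults. ilys-3 was at 0 in all control libraries, at 4.20, 0 and 2.29 in fertile and 1.33, 0 and 7.95 in sterile libraries, and was not tested.

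Among saposin-like genes, spp-5 had 2867, 2652 and 2644 normalized counts in control and 9406, 6193 and 5241 in sterile adults (log2 fold change 1.31, SE 0.22, adjusted p = 0.000167). spp-1 went from 273, 241 and 267 to 1144, 732 and 687 (log2 fold change 1.67, SE 0.28, adjusted p = 0.000161). Sterile replicate 1 was the highest library of both genes, and both other sterile libraries were also above every control library. spp-8, spp-10, spp-14, spp-15, spp-16 and spp-23 rose by between 0.83 (spp-8) and 1.48 (spp-23). The row of spp-3, spp-2, spp-6, spp-4 and spp-5 again held no common call, since of the 4 tested in adults only spp-5 was called. spp-18 was the only one of the 44 tested members that was called lower in sterile adults. It had 88.03, 94.7 and 108 in control, 109, 64.9 and 64.2 in fertile F4 and 34.5, 23.8 and 29.1 in sterile F4 adults. All sterile libraries were below all others (log2 fold change -1.71, SE 0.27, adjusted p = 7.84e-05; against fertile log2 fold change -1.38, SE 0.27, adjusted p = 0.000524).

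The peptide families held the largest fold changes, at lower counts. abf-2 had 2.81, 1.52 and 7.21 normalized counts in control and 90.3, 26.98 and 48.6 in sterile adults (log2 fold change 3.55, SE 0.65, adjusted p = 0.000285). fip-6 had 2.81, 4.55 and 12.3 and 37.2, 95.2 and 49.5 (log2 fold change 3.12, SE 0.59, adjusted p = 0.000388), and cnc-2 had 4.68, 3.79 and 17.3 and 33.2, 26.98 and 34.4 (log2 fold change 2.03, SE 0.54, adjusted p = 0.00407). None of these groups overlapped. abf-5 rose from 13.1, 24.2 and 27.4 to 51.8, 85.7 and 58.3 (log2 fold change 1.58, SE 0.36, adjusted p = 0.00145). fip-2, the most abundant fip gene per length in adults, went from 125, 177 and 128 to 315, 360.3 and 291 (log2 fold change 1.18, SE 0.21, adjusted p = 0.000242), and fipr-21 from 477, 649 and 553 to 914, 1097 and 1218 (log2 fold change 0.94, SE 0.15, adjusted p = 7.41e-05). Groups were separate in these genes too. cnc-3, fipr-1 and fipr-2 were called at smaller changes, 0.88, 0.57 and 0.50. Each of these calls was lost when 1 library was left out. That was the case for cnc-3 without control replicate 2 or 3 or any sterile replicate (adjusted p from 0.0523 to 0.122), for fipr-1 without control replicate 1 or 2 or sterile replicate 1 or 3 (0.0619 to 0.112) and for fipr-2 without control replicate 1 or 3 or sterile replicate 3 (0.0658 to 0.0976). cnc-8 overlapped, with 218, 227 and 170.1 in control and 324, 273 and 195 in sterile adults, and was not called. fipr-22, the gene lower in F4+3 larvae, had 12.2, 12.9 and 50.4 in control and 74.4, 46.03 and 29.1 in sterile adults and was not called.

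Both thaumatin-like genes that were tested rose. thn-2 had 498, 488 and 504 normalized counts in control, 678, 596 and 778 in fertile F4 and 2329.9, 1551 and 2513 in sterile F4 adults. Sterile libraries lay apart from the other 2 groups (log2 fold change 2.07, SE 0.17, adjusted p = 6.89e-07). thn-1, its direct neighbour, had 23.4, 26.5 and 23.8 in control and 86.3, 55.6 and 85.7 in sterile adults (log2 fold change 1.56, SE 0.38, adjusted p = 0.00216), again without overlap.

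**Figure D5:**
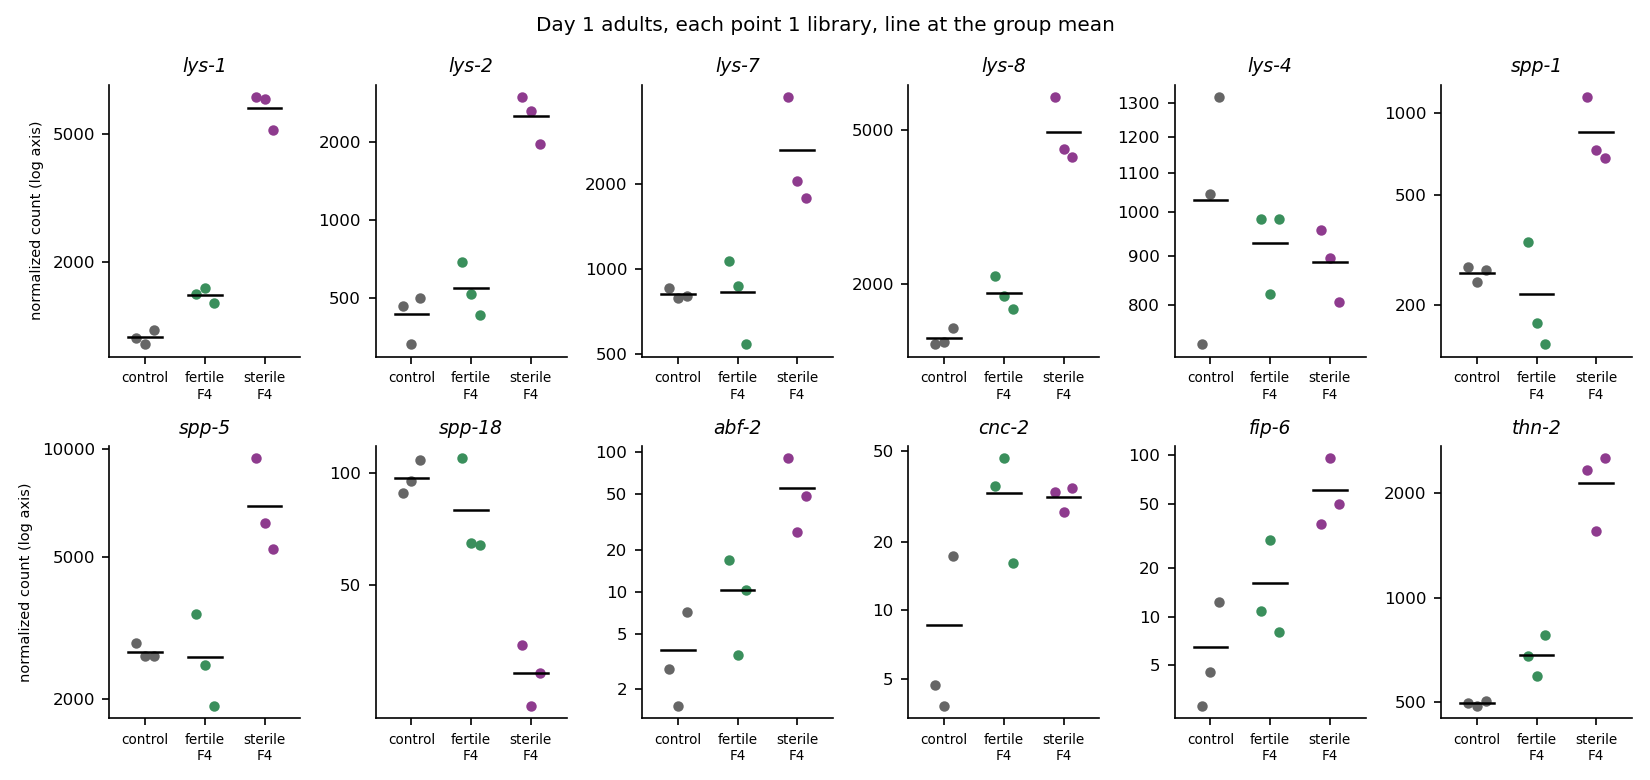
Normalized counts (vertical, log axis) of 12 members in the 9 adult libraries, with 1 point per library and a line at each group mean; lys-4 was chosen for display after its values were seen. Sterile F4 libraries lie above all control libraries for every gene shown except lys-4, which overlaps, and spp-18, where they lie below.

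Sterile and fertile F4 adults came from the same plates, and here 32 members were higher and 1 lower in sterile animals, against 38.8% and 39.6% of all genes. A limma fit that kept the replicate number as block also called 32 higher and 1 lower. lys-1 had 1597, 1660.1 and 1491 normalized counts in fertile adults (log2 fold change 1.92, SE 0.11, adjusted p = 2.91e-06). lys-2 had 687, 516 and 429.7 in fertile adults (log2 fold change 2.21, SE 0.21, adjusted p = 6.56e-06). spp-1 had 338, 172 and 143 (log2 fold change 2.03, SE 0.28, adjusted p = 5.39e-05), and abf-5 had 11.8, 17.5 and 13.8 (log2 fold change 2.09, SE 0.36, adjusted p = 0.000236). In each of these genes the fertile libraries lay below the sterile libraries given above. abf-2 had 16.8, 3.51 and 10.3 in fertile adults (log2 fold change 2.38, SE 0.65, adjusted p = 0.00543), and fip-6 had 10.9, 29.8 and 8.02 (log2 fold change 1.94, SE 0.59, adjusted p = 0.0106), also with separate groups. cnc-2 did not follow them, with 35.3, 46.5 and 16.04 in fertile adults, a range that held all sterile values. Of the 33 calls, 28 were made under every alternative run.

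Markers of other tissues differed between the adult groups in the same libraries. Against control, sterile F4 adults were lower in 8 of 8 germline markers and 7 of 7 oocyte markers and higher in 6 of 6 tested sperm markers. Summed oocyte markers ranged from 137322 to 159225 normalized counts in control, from 88248 to 116351 in fertile F4 and from 12652 to 29996 in sterile F4 libraries. Summed sperm markers ranged from 15 to 88.6, from 81.4 to 355 and from 4119 to 4741, with 1 of 7 at 0 in control libraries. Intestine markers were higher in 4 of 7, body muscle markers in 4 of 4, pharynx markers in 3 of 6 and neuron markers in 4 of 5, while epidermis markers were higher in 1 of 6 and lower in 2. Summed intestine markers were from 10662 to 12059 in control and from 19086 to 21058 in sterile libraries. Their part in the higher values of the members was not tested. Of 34 tested immune regulators, 20 were higher and 10 lower in sterile adults, and of 9 epidermal nlp genes 3 were higher and 1 was lower. Among all genes tested, 41.3% were higher and 41.8% lower in sterile F4 than in control adults.

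Few members changed between fertile F4 and control adults. Of 44 members, 2 were higher and 1 lower, against 9.86% and 12% of all genes, and the median log2 fold change was -0.10 over members and -0.11 over all genes. lys-1 had 1165, 1111 and 1229 normalized counts in control and 1597, 1660.1 and 1491 in fertile adults, without overlap (log2 fold change 0.44, SE 0.11, adjusted p = 0.0219). cnc-2 had 4.68, 3.79 and 17.3 and 35.3, 46.5 and 16.04, where control replicate 3 was above fertile replicate 3 (log2 fold change 1.96, SE 0.54, adjusted p = 0.0266). spp-3 had 1075, 1168 and 1178 and 1064, 519 and 379, with fertile replicate 1 just below the control range (log2 fold change -0.94, SE 0.30, adjusted p = 0.0463). Leaving out control replicate 1, control replicate 2 or fertile replicate 2 left 0 members called (for lys-1 adjusted p = 0.0772, 0.0863 and 0.0686, for cnc-2 0.11, 0.0984 and 0.0868, for spp-3 0.119, 0.118 and 0.122), and without fertile replicate 1 there were 0 higher and 5 lower (lys-1 0.0523, cnc-2 0.0754). spp-3 was also lost without control replicate 3 (0.111), fertile replicate 3 (0.141) or sterile replicate 2 (0.0532). Without sterile replicate 1, which enters only through the shared spread, 5 were higher and 5 lower, against 1696 and 3160 of all 13413 genes. TMM and upper-quartile rescaling, edgeR and DESeq2 each gave 5 higher and 0 lower, so that the call of spp-3 was lost under each. Over all genes, TMM gave 1822 higher and 766 lower, and the upper quartile 2329 and 485. The counts were 2030 and 885 with edgeR, and 1849 and 2023 with DESeq2. Of the immune regulators, 1 was higher and 4 were lower, and of 9 nlp genes 2 were lower.

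The other lysozymes and saposin-like genes named above were not called in fertile adults. lys-7 had 1071, 870.4 and 539.7 normalized counts, lys-8 2095, 1862 and 1719.9 and spp-5 3454, 2498 and 1918 in fertile adults. Those of lys-8 were all above the control libraries, whereas lys-7 and spp-5 overlapped them.

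Members lying next to each other were counted from the gene order of WBcel235. Of the 79 members, 78 could be placed, and 45 of them fell into 17 groups with at most 2 other protein-coding genes between neighbours. Calls of both directions without food stood together in 5 of the 17 groups in control larvae. Besides the spp and cnc rows above, these were lys-1 (lower) with lys-3 (higher), fipr-21 (lower) with fip-5 and cnc-8 (higher), and abf-5 (lower) with abf-6 (higher). Set side by side, the calls of larvae without food and of sterile adults ran in the same direction for some members and in opposite directions for others. lys-7 was lower without food in larvae and higher in sterile adults, as were lys-1 and spp-23, while cnc-2 and fip-6 were higher in both. The 2 experiments were normalized and tested separately, and no test of their difference was made.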

How the data were processed

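Total RNA of whole animals was made into libraries with the NuGEN Ovation Universal kit and, per the study's methods and submitters' notes, aligned with Subread to WS220, counted with featureCounts and normalized with DESeq2 (versions not given in the sources used here). The authors deposited 1 table for adults and 1 for larvae of counts divided by size factors, a signal unit (7 adult columns are recorded as a score because 3 damaged rows hold negative values). Damaged rows, 3 of 17723 and 1 of 23185, were left out. The deposited fold changes and p-values of the authors were not used.

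Whole reads were recovered in all libraries (100% of values whole within 0.1). For 8 libraries no separate unit check covers this. Normalized values were tested with limma 3.58.1 (R 4.3.3, with trend) on log2(value + 1) for genes with a mean of at least 10, all groups of a table in 1 fit, with Benjamini-Hochberg adjustment over all genes tested. Alternatives were a pseudocount of 0.5, no filter, TMM and upper-quartile rescaling, edgeR 4.0.16 and DESeq2 1.42.0 on recovered reads, a replicate block, fits of only the 2 groups compared, and leaving out each library in turn. Scripts were tested on simulated data.

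Replicate numbers paired fertile with sterile F4 adults, which were picked from the same plates. Same-numbered libraries deviated together with correlations of 0.384, 0.183 and 0.175. Genes in full were those best known of each family (lys-7, lys-8, spp-1, lys-1, spp-5, ilys-3, abf-2, cnc-2, fip-1, fipr-22, thn-1, thn-2) and the most abundant per length of each family. Also given were the up to 6 members with the largest called change in each direction of each comparison, taken only from called members whose groups did not overlap. For members picked in that way, separate groups were a condition of the choice and no added support. Others are named as chosen after their values were seen, or as neighbours or relatives of these. The members and lists were chosen with earlier results of these data known.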

Additional observations from a re-analysis of the deposited data

How the results depend on the processing

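Directions did not reverse under any alternative. The number of members called between fertile F4 and control adults depended most on the processing, since the main 3 became 5 without a filter on low values, 5 with TMM, with upper-quartile rescaling, with edgeR and with DESeq2, 6 in limma and 7 in edgeR with the replicate block, and 10 with only the 2 groups in the fit. Leaving out 1 library gave 0 to 10 there. Leave-one-out counts were 25 to 29 for sterile F4 against control, 29 to 34 for sterile against fertile F4, 42 to 46 and 47 to 53 for no food in control and F4+3 larvae, 1 to 2 and 0 to 1 for F4+3 against control with and without food, and 0 to 0 for the interaction. F4+3 against control with food gave 3 members instead of 1 with DESeq2 and with the replicate block in limma or edgeR. Without food DESeq2 gave 1 instead of 0. More of all genes were called in these runs too. With food, the main run called 0 higher and 2 lower over all genes. DESeq2 called 51 higher and 165 lower there, limma with the block 6 and 46, and edgeR with the block 8 and 49. Without food, the main run called 0 higher and 0 lower over all genes, and DESeq2 38 and 10. Upper-quartile rescaling split the calls of F4+3 larvae without food into 36 higher and 14 lower, against 6315 higher and 3513 lower of all 15902 genes. Calls made under every alternative were 0 of 3 for fertile and 23 of 26 for sterile F4 against control, 38 of 45 for no food in control larvae and 40 of 51 in F4+3 larvae. The replicate block gave 33 calls in limma and 32 in edgeR for sterile against fertile F4. For the other comparisons same-number correlations were lower, from -0.29 to 0.155. For no food in control larvae all were above 0 (0.0525 to 0.154), and 5 of 6 libraries correlated best with their own number. Whether the numbers pair these libraries is not settled by these values. With the block, limma and edgeR gave 29 and 32 calls for sterile F4 against control. They gave 43 and 45 for no food in control larvae, 53 and 53 in F4+3 larvae and 0 and 0 for the interaction. Causes were not tested. Members with few reads, such as spp-9, abf-2 or fip-6, have wide errors. Without the filter on low values, which tests every member, 29 members were higher and 3 lower in sterile F4 than in control adults, and 34 higher and 4 lower than in fertile F4 adults. Of all 17720 genes in these runs, 6085 were higher and 5852 lower against control, and 5667 and 5576 against fertile F4 adults.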
